A study of Mus musculus with 2 samples.

Results

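The Sox, Pou, Klf and Myc families of transcription factors comprise the 4 reprogramming factors that doxycycline switches on in these cells (Sox2, Oct3/4 encoded by Pou5f1, Klf4 and c-Myc) and their paralogues. Members were taken by the gene name on the array, as every non-control probe named Sox, Pou or Klf with the usual number, Myc, Mycn, Mycl or Mycl1. This gave 95 probes for 52 genes (20 Sox, 16 Klf, 13 Pou and 3 Myc genes) out of 41168 probes and 28781 named genes. RNA was compared between 2 mouse neural progenitor lines, N31Pax6, which overexpressed the paired-box factor Pax6, and N31EGFP, which overexpressed the fluorescent protein EGFP. Each was measured on 1 Agilent array 24 h after doxycycline. By the labels and the design text, each line was made from N31, a neural progenitor line on the 129/Ola strain derived from primary induced pluripotent stem cells. N31 carries doxycycline-inducible transgenes of the 4 factors, which the Pax6 and the EGFP cells therefore share. Pax6 or EGFP was driven by the CAG promoter on a Tol2 transposon, and the labels do not say whether each line is a clone. At this time the EGFP cells had visibly changed shape and the Pax6 cells had not.

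Sox proteins bind DNA through an HMG box, Pou proteins through a POU-specific domain joined to a homeodomain, Klf proteins through zinc fingers that read GC-rich and CACCC sequences, and Myc proteins through a basic helix-loop-helix leucine zipper that pairs with Max on E-boxes. In neural progenitors SoxB1 factors keep cells undifferentiated and class 3 Pou factors act with them. Oct3/4 with Sox2 holds the pluripotent state, to which Klf4 and c-Myc help to return somatic cells.

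The share of non-control spots flagged well above background was 67.2% for the Pax6 array and 64.7% for the EGFP array. The brightest probe of Pax6 itself read a processed signal of 822 on the Pax6 array and 557 on the EGFP array, a log2 difference of 0.35 ± 0.20, and no source used here says whether it lies in the part the transgene carries. Here and below, differences are log2 values scaled to the 75th percentile of each array, Pax6 minus EGFP, and ± is the measurement error given by the scanner software. With 1 array per line there is no replicate check and no test, and "higher" and "lower" describe these arrays. Of 12 neural progenitor markers 10 were well above background, Hes5 and Olig2 being the exceptions, and 2 of the 10 were at least 2-fold lower on the Pax6 array. These were Slc1a3, the glial glutamate transporter gene (12.9-fold lower, -3.69 ± 0.23, and -2.18 with normexp background correction, described below), and Nes, the nestin gene (3.17-fold lower, -1.66 ± 0.20). The summed scaled signal of the 12 was 133 on the Pax6 array and 125 on the EGFP array, and without Vim, the brightest, 5.21 on the Pax6 array and 8.77 on the EGFP array. Markers of other cell types differed between the arrays. All 4 epithelial markers were at least 2-fold lower on the Pax6 array, with a summed scaled signal of 25.3 there and 69.4 on the EGFP array. Of 5 fibroblast markers 3 passed 2-fold upwards and 2 downwards, with sums of 16.01 on the Pax6 array and 4.43 on the EGFP array, and Thy1, a lower one, was at -0.34 with normexp. The 4 astrocyte markers had sums of 0.801 on the Pax6 array and 0.487 on the EGFP array. S100b and Aldh1l1, measured on both arrays, differed by 0.60 ± 0.23 and 0.66 ± 0.20. Gfap and Aqp4 were above background on the Pax6 array only, so each has a lower bound, which cannot fall below 0. The bound was 0.01 for Gfap, and Aqp4 was higher by at least 3.86-fold (log2 0.50 with normexp, inside 2-fold). Of 5 neuron markers 4 were used and all of those were below 0, with sums of 4.00 on the Pax6 array and 5.73 on the EGFP array, Snap25 being 3.15-fold lower. Of these 4, Tubb3 was at -0.04 ± 0.20, and at 0.04 with median scaling. Syt1 was at -0.35, and at 0.03 with the median of its probes. Of 5 oligodendrocyte markers, Sox10 among them, 4 were used and all of those were below 0, with sums of 3.45 on the Pax6 array and 5.07 on the EGFP array. Of 4 endothelial markers 3 were above background on neither array. The part of these differences in the results below was not tested, and in bulk RNA fewer cells of a type and less RNA per cell cannot be told apart.

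Most members differed little between the Pax6 and EGFP arrays, and 4 genes stood out. Sox2 and Klf4 passed 2-fold upwards in the Pax6 cells, and Sox13 and Mycn passed it downwards. A member took the value of its brightest probe, and 39 of the 52 members could be used, 36 of them well above background on both arrays and 3 on 1 array. The 4 genes are 10.3% of the 39, whereas 4.78% of the 19243 genes above background differed by at least 2-fold (2.35% higher and 2.43% lower). The share among the members is larger than that of all genes but rests on 4 genes. The median difference was -0.02 over the members and -0.01 over all genes used, and the median absolute difference was 0.20 over the members and 0.18 over all genes. Within 1.5-fold lay 82.1% of the members and 86.3% of all genes. The 35 members within 2-fold ranged from -0.95 (Klf12) to 0.84 (Klf2). Those above background on the Pax6 array only were Pou5f1, Klf15 and Pou4f3, and they enter as lower bounds, Klf15 and Pou4f3 at 0.

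**Figure D1:**
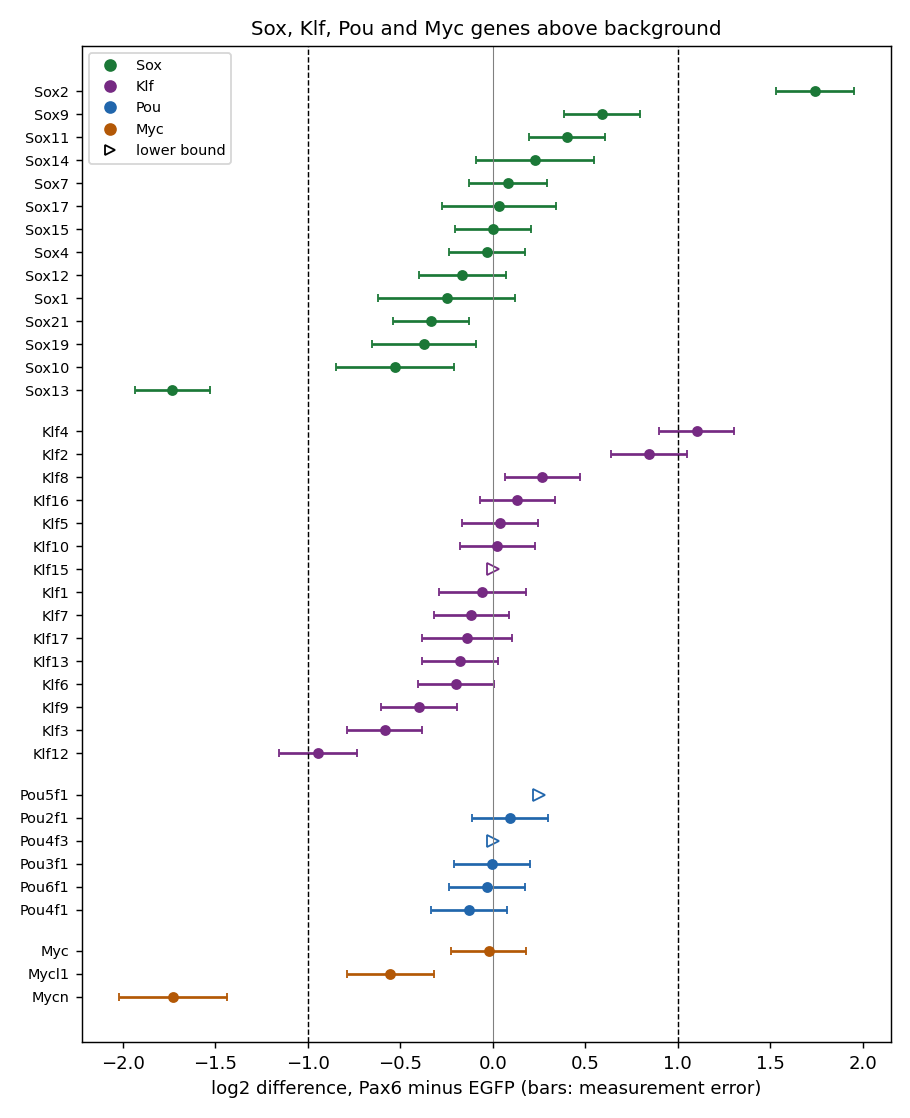
Log2 difference, Pax6 minus EGFP, of members above background, grouped by family. Points are the brightest probe with its measurement error, open triangles are lower bounds, and dashed lines mark 2-fold; Sox2 and Klf4 lie beyond the right line, and Sox13 and Mycn beyond the left one.

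The promoters of these 4 genes, where the families' own binding motifs can be looked for, are shown from 250 bases before to 50 bases after the start of the gene, on the gene's strand (RefSeq, GRCm38.p6). They are chr3:34649745-34650044 on the plus strand for Sox2, chr4:55532426-55532725 on the minus strand for Klf4, chr12:12941787-12942086 on the minus strand for Mycn and chr1:133424163-133424462 on the minus strand for Sox13. Capitals mark, on either strand, the GC box GGGCGG bound by Sp and Klf proteins, the E-box CACGTG bound by Myc with Max, the Sox core ACAAAG and the octamer ATGCAAAT of Pou proteins.
Sox2: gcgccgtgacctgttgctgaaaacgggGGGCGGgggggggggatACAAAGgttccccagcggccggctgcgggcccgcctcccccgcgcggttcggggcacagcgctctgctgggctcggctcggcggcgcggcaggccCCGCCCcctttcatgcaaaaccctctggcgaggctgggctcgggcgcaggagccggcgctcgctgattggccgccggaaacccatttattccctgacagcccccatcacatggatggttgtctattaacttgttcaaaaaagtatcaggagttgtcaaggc
Klf4: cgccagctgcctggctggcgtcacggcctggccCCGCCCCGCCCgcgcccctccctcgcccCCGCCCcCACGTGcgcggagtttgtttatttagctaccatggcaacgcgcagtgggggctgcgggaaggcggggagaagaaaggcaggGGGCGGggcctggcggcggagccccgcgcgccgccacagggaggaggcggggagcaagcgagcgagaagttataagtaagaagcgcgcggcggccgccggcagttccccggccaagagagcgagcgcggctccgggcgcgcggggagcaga
Mycn: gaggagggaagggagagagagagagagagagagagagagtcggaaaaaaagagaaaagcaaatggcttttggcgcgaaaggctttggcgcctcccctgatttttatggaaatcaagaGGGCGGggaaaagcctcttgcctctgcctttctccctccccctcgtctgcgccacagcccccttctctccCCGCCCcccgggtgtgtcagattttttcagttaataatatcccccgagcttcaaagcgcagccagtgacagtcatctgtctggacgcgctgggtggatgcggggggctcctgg
Sox13: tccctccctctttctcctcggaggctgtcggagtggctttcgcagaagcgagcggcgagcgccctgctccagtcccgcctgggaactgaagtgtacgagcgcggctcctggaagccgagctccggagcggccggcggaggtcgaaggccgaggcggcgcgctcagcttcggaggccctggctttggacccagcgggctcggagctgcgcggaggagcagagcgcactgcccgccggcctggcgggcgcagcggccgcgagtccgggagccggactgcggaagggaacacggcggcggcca
The Klf4 promoter held 4 GC boxes, of which a pair share a base, and 1 E-box. The Sox2 promoter held 2 GC boxes and 1 Sox core, and the Mycn promoter 2 GC boxes. None of the 4 motifs matched in the Sox13 window, although 73.3% of its bases are G or C. Of 32851 promoters of this length, 35.7% hold a GC box, 18.7% a Sox core, 7.15% an E-box and 1.74% an octamer. Among the 45 promoters of 36 member genes the shares were 62.2%, 17.8%, 8.89% and 4.44%, so GC boxes were common among members at large. A match is a description of letters and not a bound site.

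Among the 4 doxycycline-driven factors, Sox2 and Klf4 read higher in the Pax6 cells, Pou5f1 was near the detection limit and the probes of Myc disagreed. The Sox2 probe (mm7 chromosome 3, 34459231 to 34459290) read a signal of 307 on the Pax6 array and 79.2 on the EGFP array, a difference of 1.74 ± 0.21 or 3.34-fold. It stayed above 2-fold, at 1.24, after normexp background correction with quantile normalization (an offset of 50, which shrinks the differences of dim probes by construction). The Klf4 probe (chromosome 4, 55541780 to 55541839) read 12071 on the Pax6 array and 4846 on the EGFP array, a difference of 1.10 ± 0.20 or 2.15-fold, and 1.07 with normexp. Sox2 and Klf4 have 1 probe each, so no second probe bears on either value.

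Pou5f1 has 1 probe (chromosome 17, 33612047 to 33612107). It read 14.3 on the Pax6 array and 7.99 on the EGFP array, where it was not well above background, which gives a bound of at least 1.19-fold higher in the Pax6 cells. This bound, log2 0.25, is smaller than the measurement error of 0.52, and was 0.14 with normexp. Signals that low were seen although the Pou5f1 transgene is inducible in each line. No source used here says which transcript of the 4 factors, driven or endogenous, their probes read.

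**Figure D2:**
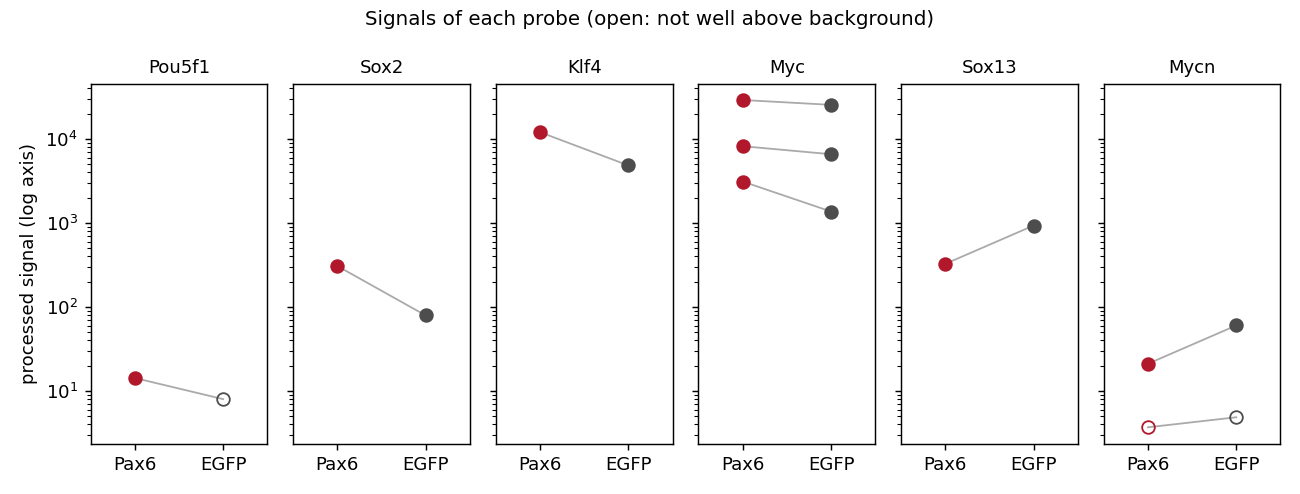
Processed signal of each probe on the Pax6 array (left) and the EGFP array (right) for the 4 doxycycline-driven factors and for Sox13 and Mycn, on a log axis, before scaling between arrays. Filled points are well above background and open points are not; Sox2 and Klf4 are higher on the Pax6 array, Sox13 and Mycn lower.

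The 3 Myc probes lie close together on chromosome 15. The probe at 62063665 to 62063724 read 8215 on the Pax6 array and 6592 on the EGFP array, a difference of 0.10 ± 0.20. The brightest probe, at 62064157 to 62064216, read 29158 on the Pax6 array and 25520 on the EGFP array, a difference of -0.02 ± 0.20. The probe nearest the 3′ end, at 62064256 to 62064316, was printed 10 times on each array and gave a mean difference of 1.02. Whether this mean passes 2-fold rests on 2 of its spots. On the Pax6 array all 10 spots read between 2938 and 3315. On the EGFP array 8 spots read between 1449 and 1585, and the other two read 951 and 646, although the software did not mark them as outliers. The 8 spots gave differences from 0.81 to 0.89, with a mean of 0.84 and an SD of 0.02 over spots, which is 1.79-fold and under the 2-fold rule, whereas all 10 gave 2.03-fold with an SD of 0.40. Leaving out those spots was chosen after the values were seen. On either reckoning the 10-spot probe read further apart than the brightest probe beside it by more than the measurement error.

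**Figure D3:**
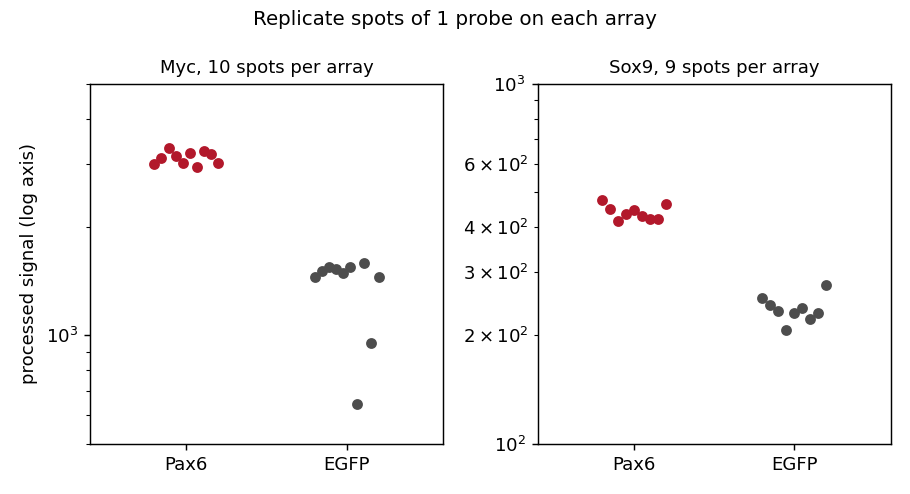
Processed signal of each replicate spot of the 10-spot Myc probe and of the Sox9 probe with 9 spots, on the Pax6 array (left) and the EGFP array (right), on log axes. On the EGFP array 2 Myc spots, at 951 and 646, lie below the other 8, and no Sox9 spot of the EGFP array reaches those of the Pax6 array.

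Of the 20 Sox genes 14 were measured on both arrays, 6 above 0 and 8 below, with a median difference of -0.02. Those below 0 include Sox19 (-0.37 ± 0.28), a name on the array whose probe has no position and which is in none of the groups below. SoxB1 factors, which maintain neural progenitors, did not share a direction. Sox2 was higher as given above, Sox1 differed by -0.25 ± 0.37 with signals of 18.7 on the Pax6 array and 19.2 on the EGFP array, and Sox3 was above background on neither array. In the SoxB2 group, which counteracts SoxB1 during neuronal differentiation, Sox21 differed by -0.33 ± 0.20 and Sox14 by 0.23 ± 0.32. The 3 Sox21 probes gave -0.33, -0.33 and -0.24.

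Sox13 was the Sox gene furthest below 0. It belongs to SoxD, factors without an activation domain of their own that work beside other Sox proteins. Its probe (chromosome 1, 133283277 to 133283336) read 326 on the Pax6 array and 933 on the EGFP array, a difference of -1.73 ± 0.20 or 3.32-fold lower, and -1.52 with normexp. Its relatives Sox5 and Sox6, with 3 and 5 probes, were above background on neither array, so the group has no other measured member. Sox13 has 1 probe, and no second probe bears on its value.

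SoxE factors specify neural crest and glia. Sox9, a regulator of gliogenesis and cartilage, read somewhat higher in the Pax6 cells, inside the 2-fold rule. Its brightest probe (chromosome 11, 112894739 to 112894798) read 715 on the Pax6 array and 409 on the EGFP array, a difference of 0.59 ± 0.20. A probe with 9 usable spots (112896540 to 112896599) gave 0.68, with an SD of 0.09 over spots and a range from 0.53 to 0.86. Its spots read 415 to 475 on the Pax6 array and 206 to 276 on the EGFP array and did not overlap, which speaks for these 2 arrays and not for the cells. Sox10, a factor of oligodendrocytes and crest, differed by -0.53 ± 0.32 at signals of 20.8 on the Pax6 array and 25.9 on the EGFP array. Its difference with normexp was -0.13, and Sox8 was above background on neither array.

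SoxC factors act in young neurons. Sox11 was the member of this group furthest above 0, at 0.40 ± 0.20 for its brightest probe, with signals of 1642 on the Pax6 array and 1072 on the EGFP array. Its 6 probes were all above 0, and the 2 nearest the 3′ end (0.40 and 0.35) read higher than the 4 upstream of them (0.07 to 0.18). Sox12 differed by -0.16 ± 0.23 and Sox4 by -0.03 ± 0.20. In SoxF, factors of endothelial and endodermal cells, Sox7 and Sox17 differed by 0.08 ± 0.21 and 0.03 ± 0.31, and Sox18 was above background on neither array.

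Of the 16 Klf genes 15 were above background, 14 on both arrays, with 6 above 0, 8 below and a median of -0.06. In the group that includes Klf4 and that mostly activates transcription, Klf2, which can stand in for Klf4 in reprogramming, came next to it. Its brightest probe (chromosome 8, 70842757 to 70842816) read 34803 on the Pax6 array and 16704 on the EGFP array, a difference of 0.84 ± 0.20. Its other probe, nearer the 3′ end (70844133 to 70844192), read 720 on the Pax6 array and 581 on the EGFP array and differed by 0.09 ± 0.20, so the probes of Klf2 do not give a shared size. Klf5, an embryonic stem cell factor, differed by 0.04 ± 0.20, and Klf6 was lowest of the group at -0.20 ± 0.20, with -0.56 for its second probe. Klf1 and Klf7 lay between, at -0.06 and -0.12.

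Among the Klf repressors that recruit the corepressor CtBP, 2 of 3 members were below 0. Klf12 read 81.4 on the Pax6 array and 135 on the EGFP array, a difference of -0.95 ± 0.21, just inside the 2-fold rule, and its second probe gave -0.83. Klf3, a repressor of fat cell and blood genes, read 1152 on the Pax6 array and 1489 on the EGFP array, a difference of -0.58 ± 0.20, and -0.80 for its second probe. Klf8 was above 0 at 0.27 ± 0.20, and 0.40 for its second probe. With normexp the Klf12 probes gave -0.50 and -0.44, and the Klf3 probes -0.56 and -0.74.

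Among Klf proteins that recruit Sin3, Klf9, a hormone-induced gene of neurons, was lowest at -0.40 ± 0.20, with -0.59 for its second probe, and Klf16 highest at 0.13 ± 0.20. Klf10, induced by TGF-beta, differed by 0.02 and Klf13 by -0.18. Klf11 carries the older name Tieg3 on the array and so falls outside the rule, and its probes gave -0.56 and -0.37. Klf15 read 10.2 on the Pax6 array and 5.59 on the EGFP array, where it was not well above background, and no fold is given.

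Pou genes were mostly below background or close between the arrays. Of 13 genes 5 were measured on both arrays, and 0 of them were called, against 4.78% of all genes, and so few genes do not set the family apart from that share. The ubiquitous Pou2f1 (Oct-1) read 5727 on the Pax6 array and 4626 on the EGFP array, a difference of 0.09 ± 0.20. Of the class 3 factors of neural progenitors only Pou3f1 was above background, at 0.00 ± 0.21, and Pou3f2, Pou3f3 and Pou3f4 were not above it on either array. Pou6f1 differed by -0.03 ± 0.21.

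The class 4 factor Pou4f1 (Brn3a), a gene of sensory neurons, had probes that disagreed. The brightest (chromosome 14, 98895465 to 98895524) read 190 on the Pax6 array and 179 on the EGFP array, a difference of -0.13 ± 0.21. The other, nearer the 3′ end (98892394 to 98892453), read 42.5 on the Pax6 array and 17.0 on the EGFP array, a difference of 1.10 ± 0.31 that was 0.34 with normexp. Pou4f3 read 11.4 on the Pax6 array and 3.50 on the EGFP array, where it was not well above background, so no fold is given.

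The other Myc genes were below 0. Mycn, the Myc gene of neural progenitors, read 21.1 on the Pax6 array and 60.2 on the EGFP array (chromosome 12, 12999078 to 12999137), a difference of -1.73 ± 0.29 or 3.32-fold lower. With normexp it was -0.57, inside the 2-fold rule, and its other probe was above background on neither array. Mycl1, the gene of L-Myc, differed by -0.55 ± 0.24 at signals of 39.7 on the Pax6 array and 50.2 on the EGFP array. Its difference with normexp was -0.16, smaller than that error.

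The partners of Myc in the Max network were close between the arrays. All 11 were measured, 0 were called at 2-fold against 4.78% of all genes, and the median was -0.01. Max, the obligate partner, differed by 0.05 ± 0.20, and the antagonists Mxd1, Mxi1 and Mnt by -0.13, -0.14 and -0.01. Classical Myc targets include the polyamine enzyme gene Odc1 (-0.05) and the nucleolar genes Ncl (0.06) and Npm1 (0.25). Of 15 such targets 12 were above 0, beside 9062 of the 19243 genes used. Among the 15, 0 were called, against 4.78% of all genes, and the median was 0.07. Only Npm1 (0.25 ± 0.20) and Ccnd2 (-0.22 ± 0.20) lay outside their measurement errors. With normexp Cad, Nop56 and Ldha were also below 0. The Sp factors, zinc-finger relatives of the Klf proteins, had 6 measured genes and 0 called, from -0.58 (Sp4) to 0.66 (Sp6).

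Targets of the families are described from lists of textbook targets. Of 11 genes bound by Oct3/4 and Sox2 in pluripotent cells that could be used, 10 measured on both arrays and 1 a bound, 1 was called, against 4.78% of all genes, and their median was -0.14. The bound, Esrrb, an orphan nuclear receptor gene, was at least 1.45-fold higher, and such a bound cannot fall below 0. It was log2 0.53, with a measurement error of 0.52, and 0.09 with normexp. The other 10 were below 0, beside 9914 of the 19243 genes used. Of these 10, Tdgf1, Sall4, Dppa2 and Dppa5a lay between -0.05 and -0.01, inside their measurement errors. With median scaling Tdgf1, Sall4, Dppa2 and Dppa5a were above 0. Zfp42 (Rex1) read 62.1 on the Pax6 array and 150 on the EGFP array, 2.81-fold lower, and Nanog, at 16.6 on the Pax6 array and 25.0 on the EGFP array, differed by -0.81 ± 0.31. With normexp these differences were -0.81 for Zfp42 and -0.20 for Nanog, inside 2-fold. Of 5 genes reported as Klf4 targets, all were below 0. Lefty1 (-0.39) and Fbxo15 (-0.54, and -0.08 with normexp) also belong to the Oct3/4 and Sox2 list above, so the lists are not independent. Of the 5, 2 were called, against 4.78% of all genes. These were Cdh1, the gene of E-cadherin (10.6-fold lower, -3.40 ± 0.21, and -2.53 with normexp), and the keratin gene Krt19 (3.17-fold lower, -1.66 ± 0.20), so they read lower on the array on which Klf4 read higher. Both are also epithelial genes, a class that was lower on the Pax6 array as given above.

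Of 6 cartilage genes that Sox9 controls with Sox5 and Sox6 and that could be used, 5 measured on both arrays and 1 a bound, 1 was called, against 4.78% of all genes. Col2a1, the type II collagen gene, read 1145 on the Pax6 array and 318 on the EGFP array, 3.11-fold higher (1.64 ± 0.20), while Acan, Col9a2 and Col11a2 differed by -0.22, 0.00 and -0.04. With the mean of a gene's probes Col2a1 was at 1.11 and Col11a2 at -0.38. Comp, a matrix protein gene of cartilage, differed by -0.69 ± 0.29, and by -0.13 with normexp. Hapln1, a link protein gene seen on the Pax6 array only, was at least 1.34-fold higher. That bound, log2 0.42, is smaller than its measurement error of 1.46, and was 0.12 with normexp. Of 6 measured Sox10 targets, 1 was called in each direction, again beside 4.78% of all genes. The connexin gene Gjb1 was 2.19-fold higher (1.13 ± 0.28) and the myelin gene Mbp 2.10-fold lower (-1.07 ± 0.20), with a median of -0.17 for the list. Gjb1 was inside 2-fold with normexp (0.49), and so was Mbp with median scaling (-0.99) and with the mean (-0.90) or median (-0.84) of its probes.

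Several probes were measured for 14 members. In 11 of them all probes had the same sign, and in Klf5, Myc and Pou4f1 they did not. The strand of the brightest probe matched the RefSeq strand for 36 of 36 members that could be compared, and other probes were not compared. The order of probes along a gene was read from their positions in the design. A Sox17 probe below background lies on the strand opposite to that of the other Sox17 probes.

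**Figure D4:**
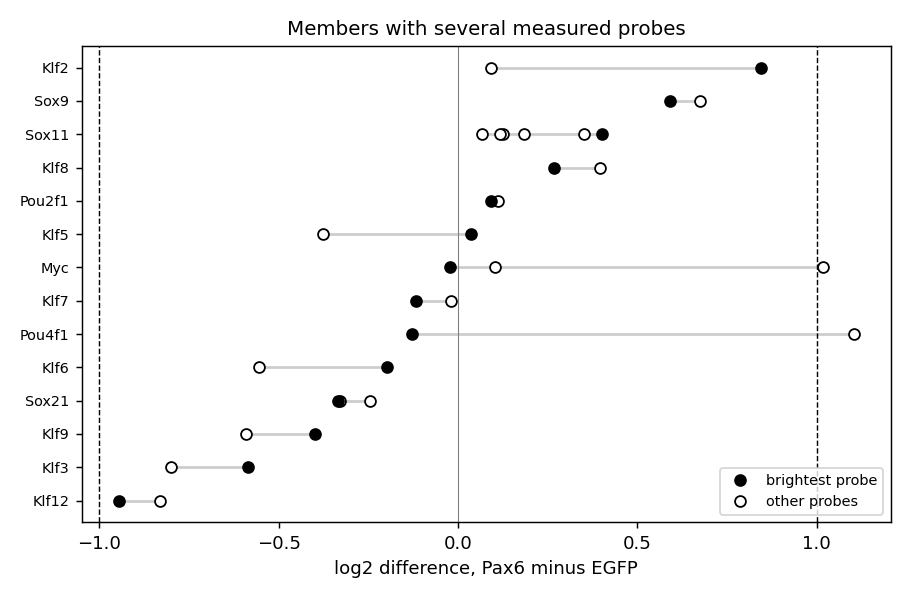
Log2 difference, Pax6 minus EGFP, of every measured probe of the 14 members with more than 1 such probe. Filled points are the brightest probe of the gene, open points its other probes and dashed lines 2-fold; Klf2, Myc and Pou4f1 have the widest spread, and Klf12, Klf3 and Sox9 keep to 1 side of 0.

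Sox2, Klf4, Sox13 and Mycn were at least 2-fold different with every scaling of the processed signal tried, and normexp background correction brought Mycn inside 2-fold.

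**Figure D5:**
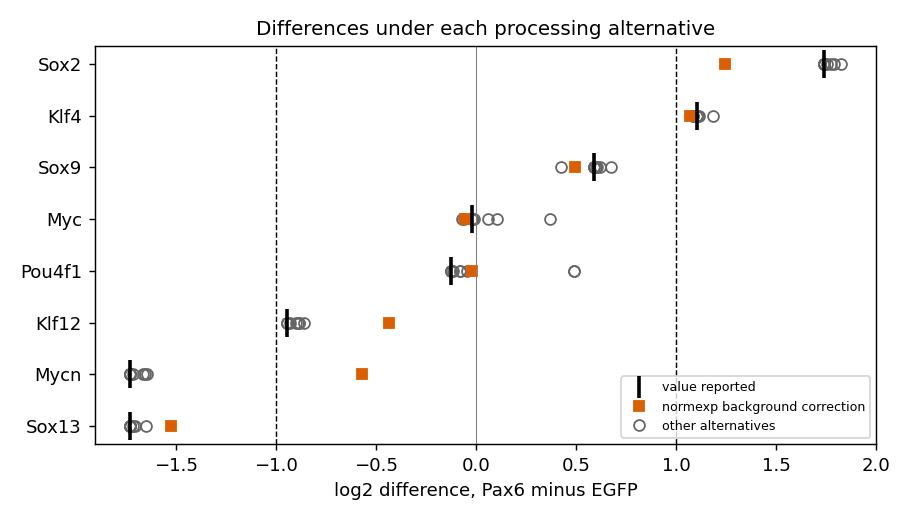
Log2 difference, Pax6 minus EGFP, of 8 members under each processing alternative. Vertical bars are the values reported, squares normexp background correction with quantile normalization (for Klf12, its second probe, then the brighter) and circles the other alternatives; the Mycn square, at -0.57, is the only one to cross a dashed 2-fold line.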

How the data were processed

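Total RNA of 1 Pax6 and 1 EGFP culture was labelled with Cy3 by linear amplification and hybridised to 1-colour Agilent arrays, per the labels' protocols. Agilent Feature Extraction 10.7.3.1 was the authors' extraction software, per the file headers. It subtracted background and detrended each array to give the deposited intensity values (processed signals), which the deposited series table repeats. The deposited flags (unit other) mark spots well above background, saturated or outlying, per the file headers. Probe positions are those of the design, on mm7.

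Of 43379 non-control spots, 43283 without outlier flags on either array were kept. Signals were put on the log2 scale less each array's 75th percentile (991 on the Pax6 array, 854 on the EGFP array), and spots of a probe were averaged. A gene took its brightest probe and was used when well above background on at least 1 array. A gene seen on 1 array has a lower bound, against its own dim value or, if higher, the dimmest probe that passed that flag (9.30 on the Pax6 array, 10.3 on the EGFP array). Accessions gave current symbols for 22951 of 41168 probes. Genes were called at 2-fold. With 1 array per group, no p-value is given, and the number of arrays limits precision. Python 3.11.15, R 4.3.3 and limma 3.58.1 were used, and the calling steps were tested on simulated data. The members and gene lists were chosen with earlier results of these data known. Members named with values include every probe of the 4 factors, members at least 2-fold different or with discordant probes, and the extremes of each subgroup; others were chosen after their values were seen. The value of 1 member above background is not reported here.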

Additional observations from a re-analysis of the deposited data

How the results depend on the processing

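The counts of 2 members at least 2-fold higher and 2 lower were unchanged by scaling to the median, to the spike-in controls, by quantile normalization, by cyclic loess, with the deposited series table, by averaging the probes of a gene (mean or median), and with only genes seen on both arrays. Normexp background correction left 1 lower member (Sox13), with Mycn at -0.57, and its called genes fell to 285 of 19199 (1.48%), against 919 of 19243. A rule of at least 3-fold left 1 higher member (Sox2), and requiring a difference above 2 times its measurement error as well gave 2 in each direction. Without a filter on dim probes, 3 members were higher, as Pou4f3 then counted, and 2539 of 28781 genes (8.82%) were called. The median over members lay between -0.04 and 0.05. The mean of the probes moved Myc to 0.37 and Pou4f1 to 0.49. In all, 11 of 269 values of families and named members were marked as moved, 7 of them with normexp, and no called value changed sign. The named members so marked moved by more than their measurement error. A family median has no such error. The median of the Myc genes, also marked as moved, went from -0.55 to -0.16 with normexp. No paired analysis was possible because each group has 1 array, so no array could be left out either. Members near background, such as Pou5f1, Klf15 and Pou4f3, are limited by signal over background.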
